A study of Mus musculus with 12 samples.

Results

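The immediate early genes described here are 10 genes chosen by symbol, namely Fos, Fosb, Junb, Egr1, Nr4a1, Npas4, Arc, Dusp1, Btg2 and Ier2. All 10 were found among the 44345 gene names of each deposited count table. They were measured in dorsal root ganglia (DRG), where the cell bodies of sensory neurons lie, from C57BL/6 mice of 5 to 8 weeks. Mice spent 10 days in environmental enrichment (EE) or in standard housing (SH), and the sciatic ganglia L4-L6 were taken. The 4 groups of 3 libraries each were captured large neurons of EE mice, captured large neurons of SH mice, whole DRG of EE mice and whole DRG of SH mice. Column names of the whole-DRG tables, and not those of captured neurons, include Sham, a term that no label defines. Whether those mice had a sham operation is not given in the sources used here, and if so it would be shared by EE and SH and differ between the preparations. A whole-DRG library pooled the ganglia of 2 mice. A captured library held neurons with a diameter of at least 30 µm, cut by laser from stained 16 µm sections of 3 mice. Nothing in the labels states that each library had its own mice. The p-values below therefore measure only the spread between libraries, which may be technical.

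Immediate early genes are transcribed within minutes of a stimulus without new protein synthesis. Calcium entry and growth factor receptors reach them through the MAP kinases and calcium/calmodulin kinases, which act on the transcription factors CREB and SRF bound near their start sites. Their transcripts are usually short-lived, and in neurons their level is widely read as a trace of recent activity. Fos, Fosb and Junb encode subunits of the transcription factor AP-1. Egr1, Nr4a1 and Npas4 encode a zinc finger factor, an orphan nuclear receptor and a neuronal factor induced by calcium entry. Arc encodes a protein that acts at synapses, Dusp1 a phosphatase that switches off MAP kinases, and Btg2 an antiproliferative protein that binds a deadenylase complex. Ier2 encodes a small nuclear protein induced by growth factors.

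The cyclic AMP response element (CRE), the site at which CREB binds, is shown in 3 promoters, because Fos had the smallest p of any member in captured neurons and Dusp1 and Nr4a1 had the smallest p in whole DRG. Each stretch runs 5′ to 3′ from 250 bases before to 50 bases after the RefSeq transcription start in GRCm38.p6, and capitals mark every CRE core (TGACG on either strand).
Fos, chr12:85473640-85473939, plus strand: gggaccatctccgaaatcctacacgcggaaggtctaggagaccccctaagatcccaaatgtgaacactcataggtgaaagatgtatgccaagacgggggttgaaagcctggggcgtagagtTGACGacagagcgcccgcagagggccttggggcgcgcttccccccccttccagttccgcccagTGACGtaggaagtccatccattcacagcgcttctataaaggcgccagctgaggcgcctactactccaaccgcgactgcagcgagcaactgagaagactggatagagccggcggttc
Dusp1, chr17:26508423-26508722, minus strand: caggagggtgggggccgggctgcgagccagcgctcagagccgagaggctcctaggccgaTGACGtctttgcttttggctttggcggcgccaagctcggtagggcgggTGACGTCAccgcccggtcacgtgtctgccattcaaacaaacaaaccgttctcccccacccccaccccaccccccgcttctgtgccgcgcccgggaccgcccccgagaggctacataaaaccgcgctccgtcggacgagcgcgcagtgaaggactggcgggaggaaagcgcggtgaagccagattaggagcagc
Nr4a1, chr15:101266596-101266895, plus strand: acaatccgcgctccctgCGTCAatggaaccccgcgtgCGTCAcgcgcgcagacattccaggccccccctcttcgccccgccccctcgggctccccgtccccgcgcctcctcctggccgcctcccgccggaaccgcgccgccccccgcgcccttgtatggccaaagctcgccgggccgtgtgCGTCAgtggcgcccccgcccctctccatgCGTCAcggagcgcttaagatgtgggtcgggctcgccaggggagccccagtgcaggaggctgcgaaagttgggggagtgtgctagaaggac
The Fos stretch held 2 cores and the Nr4a1 stretch 4. The Dusp1 stretch held 3, of which 2 overlap as the strands of 1 full CRE (TGACGTCA).

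In the GRCm38 annotation (GENCODE vM21) Fos spans chr12:85473890-85477273 on the plus strand, Fosb chr7:19302696-19310051 on the minus strand and Junb chr8:84974484-84978718 on the minus strand. Egr1 spans chr18:34859823-34864984 (plus), Nr4a1 chr15:101254269-101274795 (plus) and Npas4 chr19:4984355-4990316 (minus). Arc spans chr15:74669083-74672570, Dusp1 chr17:26505590-26562128, Btg2 chr1:134075170-134079120 and Ier2 chr8:84661331-84662852, all on the minus strand.

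By symbol, 7 of the 10 members matched a RefSeq promoter of this length, and Egr1, Arc and Ier2 did not. A CRE core on either strand was present in 7 of the 7, against 20.8% of all 32851 promoters in the table. A full CRE was present in 2 of the 7 (Dusp1 and Btg2), against 1.79% of all promoters. A GC box (GGGCGG on either strand) was present in 6 of the 7, against 35.7%, and TATAAA on either strand in 2 (Fos and Junb), against 13.6%. The CArG box, at which SRF binds, was in 0 of these 7 windows and in 1.63% of all promoters, which says only that its letters are not within these bases. These matches are descriptions of sequence and were not tested.

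No member passed the test between housing conditions in either preparation. With the edgeR quasi-likelihood test and Benjamini-Hochberg adjustment over all genes, at a threshold of 0.05, 0 of 8 members tested passed in captured neurons, where 0.0185% of 16186 genes did. Whole DRG gave 0 of 8, where 0.00631% of 15845 genes passed. With the replicate number as a block in whole DRG, where a number stands for a shared lane, 32 genes (0.202%) passed in place of 1, and again 0 members. Fosb and Npas4 had too few reads for the filter on low counts in each preparation. At an unadjusted p under 0.05 the count was 1 of 8 in captured neurons (Fos), against 15.9% of all genes, and 0 of 8 in whole DRG, against 2.9%. With the replicate block the count in whole DRG was 2 of 8 (Nr4a1 and Dusp1), against 5.2% of all genes. Both limma-voom and DESeq2 called 0 of 8 members in each preparation, where DESeq2 was run without its filter on mean counts, an alternative chosen after seeing the data. With that filter DESeq2 gave an adjusted p to 1 of 8 members in captured neurons and to 8 of 8 in whole DRG. The median log2 fold change (EE over SH) of the 8 members was 0.14 in captured neurons, beside -0.00060 over all genes, and -0.040 in whole DRG, beside 0.0028 over all genes.

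**Figure D1:**
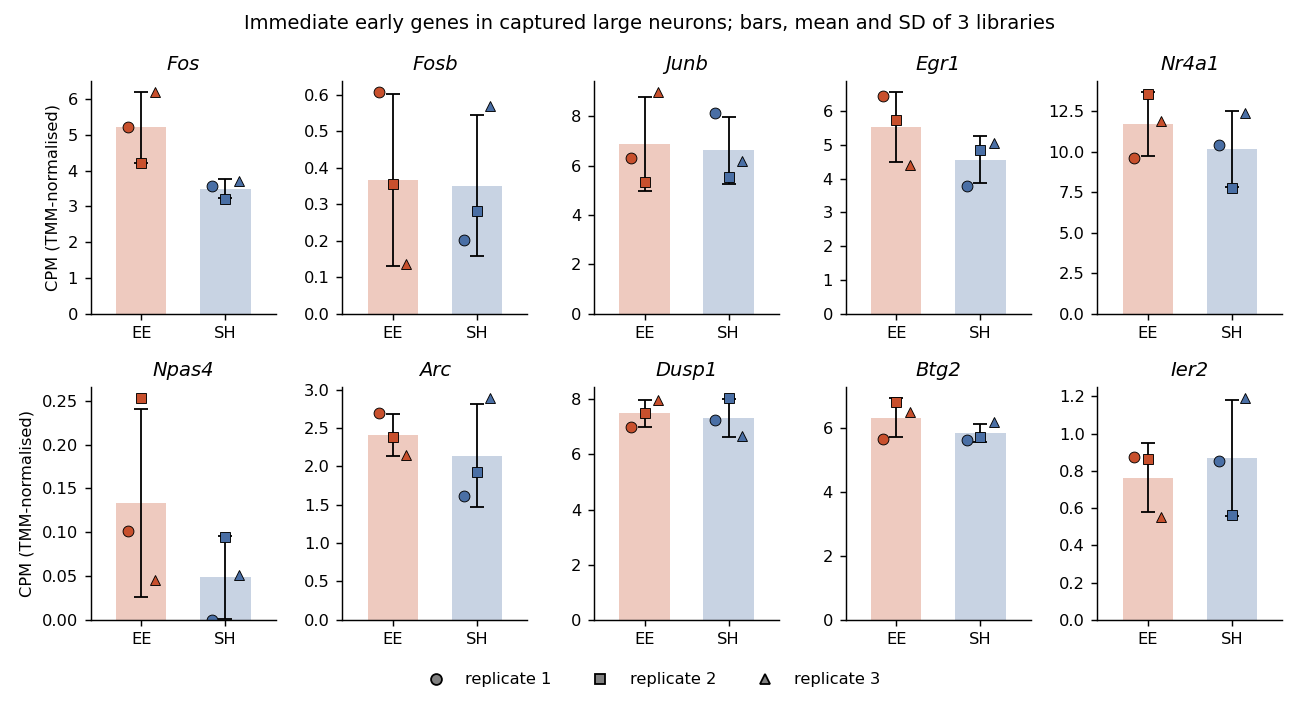
CPM (read counts scaled to library size, TMM-normalised; linear axes from 0) of the 10 immediate early genes in captured large neurons, EE left of SH; points are libraries, bars the mean and whiskers the SD of 3. Fos is the 1 gene whose EE libraries (4.21 to 6.19 CPM) all lie above its SH libraries (3.20 to 3.72 CPM).

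**Figure D2:**
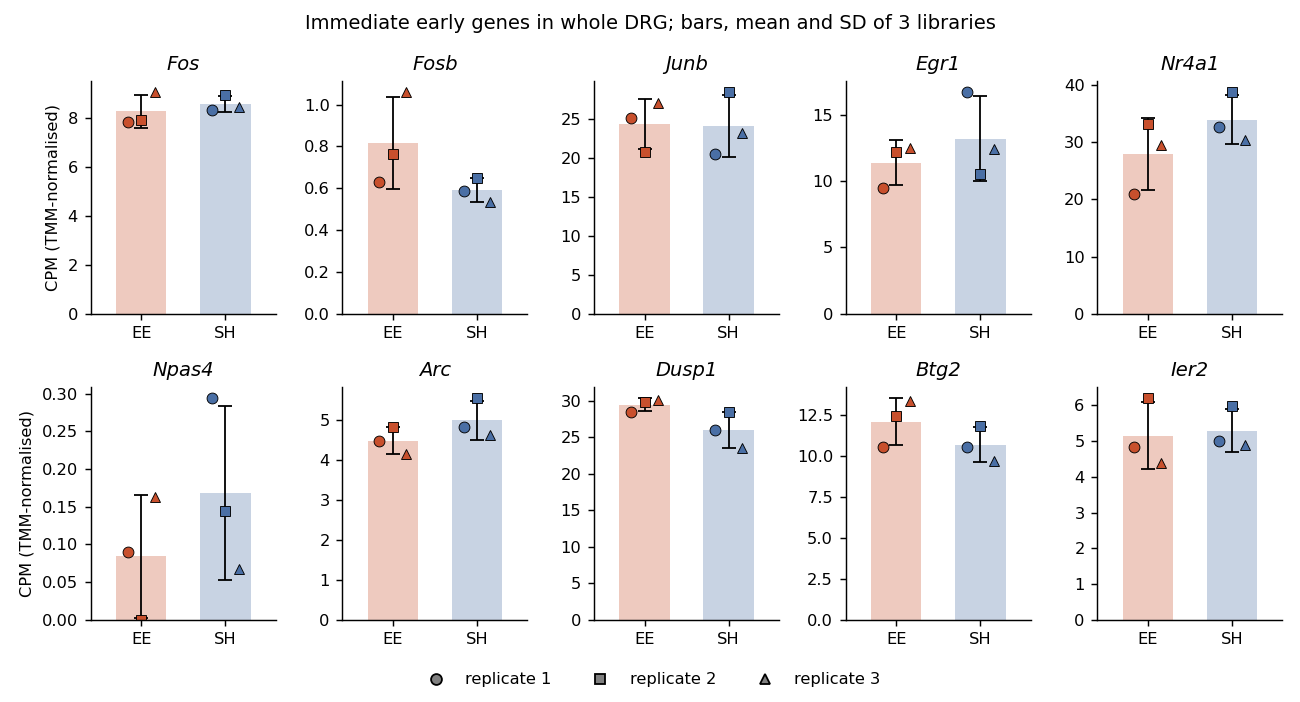
The same 10 genes in whole DRG, with the same symbols (CPM, TMM-normalised; linear axes from 0; bars mean, whiskers SD of 3 libraries). EE and SH libraries overlap for every gene, and the EE library of replicate 1 is the lowest for Nr4a1 (20.9 CPM) and Egr1 (9.44 CPM).

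Among the AP-1 genes, Fos separated the housing groups in captured neurons without passing the threshold. In captured neurons Fos had 5.23, 4.21 and 6.19 CPM (counts scaled to reads in genes and by TMM) in EE libraries 1 to 3, against 3.57, 3.20 and 3.72 CPM in SH libraries 1 to 3. All 3 EE libraries lay above all 3 SH libraries, and the log2 fold change was 0.58 (SE 0.191, 95% interval 0.15 to 1.00), or 1.49-fold, with an adjusted p of 0.195 (edgeR quasi-likelihood test). Fos was the 1 member of 8 tested whose groups did not overlap there, against 21.1% of all genes tested. In whole DRG the groups of 0 of 8 members did not overlap, against 7.48% of all genes tested. These shares, and the unadjusted ones above without the replicate block, are near or below the background. The separation therefore does not set Fos or the members apart from other genes in these libraries. With the block in whole DRG the unadjusted count, 2 of 8 against 5.2% of all genes, was above the background, and 0 members passed after adjustment. The values rest on 83 to 155 reads in EE libraries and 68 to 72 in SH libraries.

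Whole DRG showed no such separation, and Fos had 7.82, 7.89 and 9.04 CPM in EE libraries and 8.30, 8.94 and 8.43 CPM in SH libraries. The groups overlapped, with a log2 fold change of -0.05 (95% interval -0.33 to 0.23). The difference of the Fos housing effect between the preparations (captured minus whole) was 0.62 (SE 0.223, 95% interval 0.15 to 1.09), with an adjusted p of 0.313 in the edgeR interaction test over all 12 libraries.

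Junb, a dimerisation partner of Fos, did not separate by housing. It had 6.31, 5.32 and 8.98 CPM in captured EE libraries, against 8.15, 5.55 and 6.19 CPM in captured SH libraries. Its whole-DRG values were 25.2, 20.8 and 27.1 CPM in EE libraries and 20.6, 28.5 and 23.3 CPM in SH libraries. Both sets of libraries overlapped, and the log2 fold changes were 0.052 (95% interval -0.43 to 0.54) in captured neurons and 0.017 (-0.24 to 0.28) in whole DRG. In the annotation 173 exonic bases of Junb overlap Prdx2 on the opposite strand. Whether counting used strand is not given in the sources used here, so part of its reads could not be assigned with certainty.

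Fosb, the AP-1 subunit gene whose splice form accumulates with repeated stimulation in brain, was close to the limit of counting. It had 18, 7 and 3 reads in captured EE libraries and 4, 6 and 11 reads in captured SH libraries. Whole DRG gave 7, 10 and 13 reads in EE libraries (0.629, 0.766 and 1.06 CPM) and 10, 9 and 8 reads in SH libraries (0.588, 0.649 and 0.535 CPM). The groups overlapped in each preparation. A difference of this gene by housing was not detectable at this depth.

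Egr1 and Nr4a1 had positive fold changes in captured neurons and negative ones in whole DRG, with none past the threshold, and single libraries weighed on their size. Egr1 had 6.44, 5.73 and 4.40 CPM in captured EE libraries, against 3.77, 4.84 and 5.06 CPM in captured SH libraries (log2 fold change 0.28, 95% interval -0.15 to 0.72). Whole DRG gave 9.44, 12.2 and 12.5 CPM in EE libraries, against 16.7, 10.5 and 12.4 CPM in SH libraries (log2 fold change -0.22, 95% interval -0.57 to 0.13). The SH library of replicate 1 was the highest for Egr1 in whole DRG and the lowest in captured neurons, and the groups overlapped in both preparations. Without that library the log2 fold change was -0.0095 in whole DRG, and without captured EE replicate 1 it was 0.15 in captured neurons.

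Nr4a1 had 9.65, 13.6 and 11.9 CPM in captured EE libraries and 10.4, 7.75 and 12.4 CPM in captured SH libraries (log2 fold change 0.20, 95% interval -0.22 to 0.61). Whole DRG gave 20.9, 33.2 and 29.6 CPM in EE libraries and 32.7, 38.8 and 30.4 CPM in SH libraries (log2 fold change -0.27, 95% interval -0.56 to 0.013). The EE library of whole DRG was below the SH library of the same number, with which it shared a sequencing lane, in each of the 3 pairs. With the replicate number as a block the log2 fold change was -0.29 (SE 0.0856). The unadjusted p was 0.00119 with the block and 0.0601 without it (edgeR quasi-likelihood test). With the block the adjusted p was 0.273, so the call did not change. Leaving out single libraries gave -0.11 (without EE replicate 1) to -0.42 (without EE replicate 2) in whole DRG and 0.030 (without SH replicate 2) to 0.36 (without SH replicate 3) in captured neurons. The difference between the preparations was 0.46 for Nr4a1 (95% interval -0.081 to 1.00) and 0.49 for Egr1 (-0.087 to 1.06), each with an adjusted p of 0.507 in the edgeR interaction test.

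Npas4 had at most 5 reads in any library. It had 3, 5 and 1 reads in captured EE libraries, against 0, 2 and 1 reads in captured SH libraries. Whole DRG gave 1, 0 and 2 reads in EE libraries and 5, 2 and 1 reads in SH libraries. No difference could be read at such counts.

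**Figure D3:**
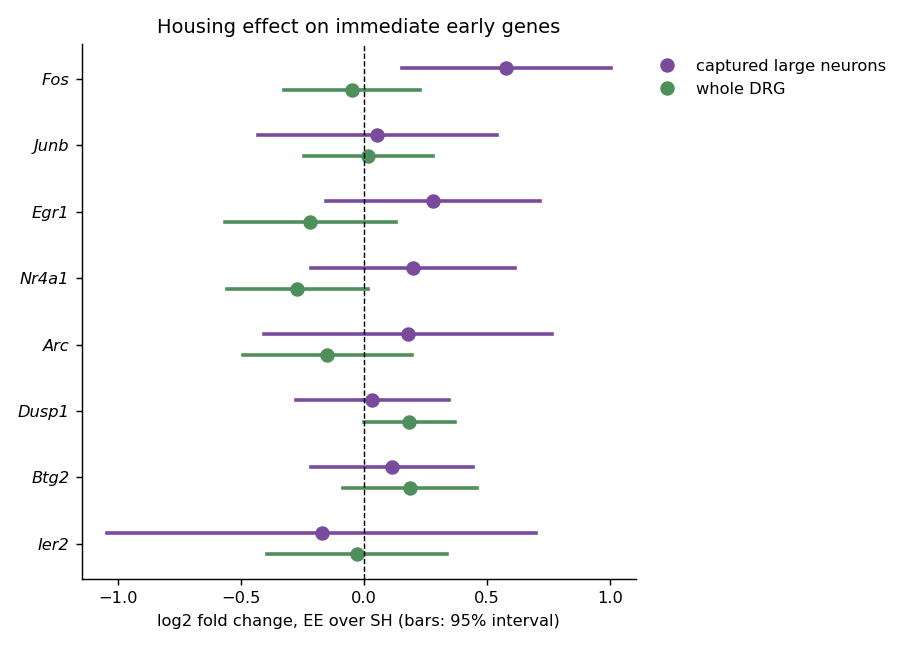
Log2 fold change (EE over SH) of the 8 members with enough reads to be tested, captured neurons above whole DRG for each gene; points are estimates and bars 95% intervals of the edgeR quasi-likelihood fit. The interval of Fos in captured neurons (0.15 to 1.00) lies above 0, and every other interval includes 0.

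The remaining members, which encode proteins that act at synapses, on kinases and on growth, gave overlapping groups in each preparation. Arc had 2.70, 2.38 and 2.15 CPM in captured EE libraries and 1.61, 1.93 and 2.89 CPM in captured SH libraries (log2 fold change 0.18, 95% interval -0.41 to 0.76). In whole DRG Arc had 4.49, 4.83 and 4.15 CPM in EE libraries and 4.82, 5.55 and 4.62 CPM in SH libraries (log2 fold change -0.15, 95% interval -0.49 to 0.19). The highest captured value of Arc was in an SH library. In whole DRG Arc was lower in the EE library of all 3 lane pairs, as was Nr4a1. Dusp1, Btg2 and Fosb were higher in the EE library of all 3 pairs, and the other members were mixed. For Btg2 the pair of replicate 1 was nearly equal (10.5 CPM in both). Scaled to library size alone it was 10.3 CPM in EE and 10.4 CPM in SH. The Fosb pair of replicate 1 rested on 7 reads in EE and 10 in SH. The share of all genes with 1 direction in all 3 pairs was not computed, so these pairs are a description.

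Dusp1 had 7.01, 7.50 and 7.97 CPM in captured EE libraries and 7.25, 8.04 and 6.66 CPM in captured SH libraries (log2 fold change 0.033, 95% interval -0.28 to 0.34). Its whole-DRG values were 28.5, 29.9 and 30.1 CPM in EE libraries and 26.0, 28.5 and 23.5 CPM in SH libraries (log2 fold change 0.18, SE 0.0860, 95% interval -0.00060 to 0.37). Without the replicate block that was the smallest unadjusted p of a member in whole DRG (0.0506), with an adjusted p of 1 (edgeR quasi-likelihood test). The lowest EE library and the highest SH library met at about the same level. Within lane pairs the EE library was higher in 3 of 3, and with the replicate block the unadjusted p was 0.031 and the adjusted p 0.865. In the annotation 11 exonic bases of Dusp1 overlap Ergic1 on the opposite strand.

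Btg2 had 5.67, 6.84 and 6.51 CPM in captured EE libraries and 5.64, 5.73 and 6.19 CPM in captured SH libraries (log2 fold change 0.11, 95% interval -0.22 to 0.44). Its whole-DRG values were 10.5, 12.4 and 13.3 CPM in EE libraries and 10.5, 11.8 and 9.70 CPM in SH libraries (log2 fold change 0.19, 95% interval -0.086 to 0.46). Ier2 had 0.877, 0.862 and 0.550 CPM in captured EE libraries and 0.855, 0.564 and 1.19 CPM in captured SH libraries, from 12 to 26 reads a library (log2 fold change -0.17, 95% interval -1.05 to 0.70). In whole DRG Ier2 had 4.85, 6.20 and 4.40 CPM in EE libraries and 5.00, 5.98 and 4.88 CPM in SH libraries (log2 fold change -0.030, 95% interval -0.40 to 0.34).

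The intervals of the members come gene by gene, without adjustment, from the edgeR fit without a block. Like the p-values, they measure only the spread between libraries, which may be technical. They therefore set no limit on an effect of housing on mice. In whole DRG the highest upper bound of the 8 was 0.46 (Btg2) and the lowest lower bound -0.57 (Egr1), so that no interval reached a doubling or a halving. In captured neurons the upper bounds ran from 0.34 (Dusp1) to 1.00 (Fos), and Ier2, with the fewest reads, had the widest interval (-1.05 to 0.70). For the difference between preparations 0 of 9 members tested passed, where 0% of 17412 genes did (edgeR quasi-likelihood test). Fos had the smallest p of the 9 there, with an adjusted p of 0.313 in the edgeR interaction test. For this difference limma-voom and DESeq2 without its filter on mean counts called 0 of 9, and with the filter DESeq2 gave no member an adjusted p.

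The spread between libraries of a group was often larger than counting error. The coefficient of variation of a member's CPM within a group exceeded that expected from counting alone (the inverse square root of the mean count) in 15 of 20 gene-and-group combinations in captured neurons and in 12 of 20 in whole DRG. With 3 libraries some combinations would exceed it by counting alone, and how many was not computed. The combinations include Fosb and Npas4, which had few reads. Nr4a1 in whole DRG varied by 22.5% among EE libraries and 12.8% among SH libraries, where counting alone gives 5.4% and 4.4%. Fos in captured neurons varied by 19% among EE libraries and 7.7% among SH libraries, where counting gives 8.97% and 11.9%.

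Pairs of members were on the median weakly correlated across libraries. Over the 6 libraries of captured neurons, 18 of the 28 pairs among the 8 members had a positive Pearson correlation of log2 CPM, with a median of 0.15. Over the 6 libraries of whole DRG, 17 of 28 pairs were positive, with a median of 0.11. The highest value was 0.88 for Dusp1 with Btg2 in whole DRG, and the lowest was -0.96 for Ier2 with Dusp1 in captured neurons. These are descriptions over libraries that share a housing contrast and, in part, sequencing lanes. Relative to the SH mean, the median of the members was 0.0097, 0.21 and 0.14 (log2) in captured EE libraries 1 to 3, against 0.012, -0.11 and 0.12 in captured SH libraries 1 to 3. In whole DRG it was -0.12, -0.036 and 0.015 in EE libraries and -0.044, 0.15 and -0.11 in SH libraries. The groups overlapped on this median in both preparations.

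Compared per kilobase of exon, the members kept a broad order from Junb, Nr4a1 and Dusp1 at the top to Fosb and Npas4 at the bottom. In captured neurons Nr4a1 stood at 3.12 ± 0.601 RPKM (CPM divided by exon length in kilobases; SD, n = 6), Junb at 2.93 ± 0.642, Dusp1 at 2.24 ± 0.164 and Btg2 at 2.22 ± 0.183. Fos followed at 1.85 ± 0.485, Egr1 at 1.12 ± 0.212, Arc at 0.745 ± 0.157 and Ier2 at 0.536 ± 0.156 RPKM. Each of these 8 overlapped its neighbour in the order over the 6 libraries, and there was a gap below Ier2 to Fosb at 0.0574 ± 0.0308, which overlapped Npas4 at 0.0220 ± 0.0211 RPKM.

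In whole DRG the order began with Junb at 10.5 ± 1.42 RPKM (SD, n = 6), Nr4a1 at 8.82 ± 1.68 and Dusp1 at 8.38 ± 0.769, whose ranges overlapped. A gap followed to Btg2 at 4.14 ± 0.496, which overlapped Fos at 3.57 ± 0.218. Fos overlapped Ier2 at 3.43 ± 0.466, and Ier2 overlapped Egr1 at 2.74 ± 0.554. Arc at 1.55 ± 0.153, Fosb at 0.113 ± 0.0305 and Npas4 at 0.0305 ± 0.0243 RPKM each lay apart from the next. Ier2 therefore ranked sixth in whole DRG and eighth in captured neurons. The authors' FPKM values equalled these RPKM within 1% for Fos, Egr1, Arc, Btg2 and Ier2, and were 1.22 to 1.65 times as high for the other 5. The gene lengths behind the FPKM values were not compared, and the cause was not tested.

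**Figure D4:**
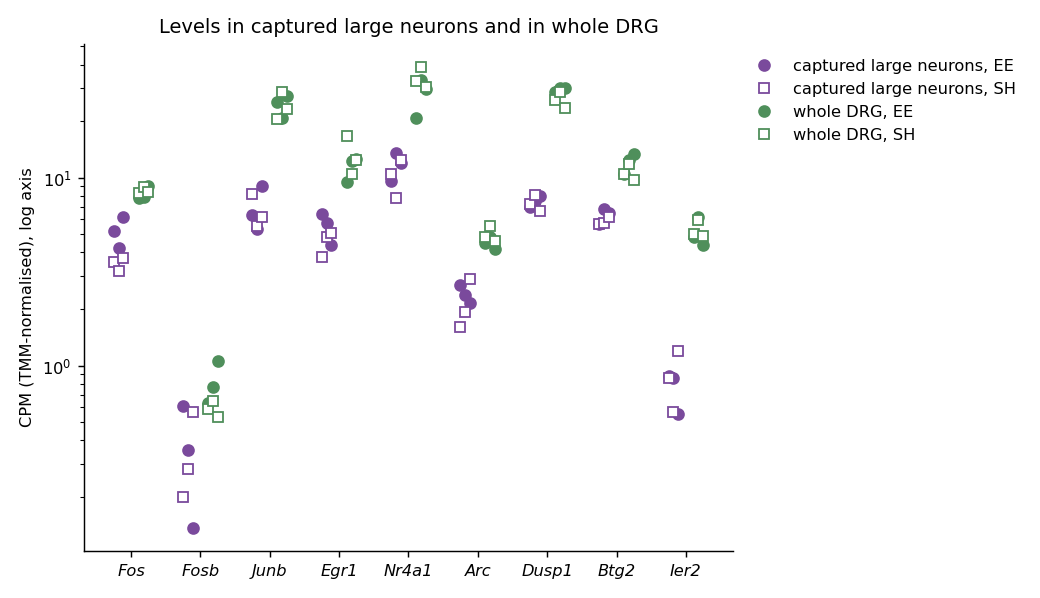
CPM (TMM-normalised within each preparation, log axis) of 9 members in captured large neurons, left, and whole DRG, right, for each gene; filled circles are EE and open squares SH libraries. Npas4 is left out because it had 0 reads in some libraries. The 6 captured libraries lie below the 6 whole-DRG libraries for every gene shown except Fosb.

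Captured neurons held a smaller share of reads from these genes than whole DRG. Of the 9 members in the table of both preparations, 8 had all 6 captured libraries below all 6 whole-DRG libraries, as did 39.7% of 17412 genes. The median ratio of captured to whole CPM was 0.410 for the 9 members and 0.867 for all genes. Ier2 differed most, with 0.816 ± 0.236 CPM in captured neurons and 5.22 ± 0.710 CPM in whole DRG (SD, n = 6 each), which was 6.40-fold lower in captured neurons. Dusp1 was 3.75-fold lower, Junb 3.59-fold lower, Nr4a1 2.82-fold lower and Egr1 2.44-fold lower. Arc was 2.08-fold, Fos 1.93-fold and Btg2 1.86-fold lower.

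The gap was of similar size in both housing conditions for Junb (3.54-fold in EE and 3.64-fold in SH) and Btg2 (1.90-fold and 1.82-fold). For Fos it was 1.58-fold in EE and 2.45-fold in SH. Each table was normalised on its own, and the preparations also differ in library kit, RNA integrity and read length. Reads had 100 cycles in whole DRG and 125 in captured libraries. A sham operation may differ too. Cell content and these differences cannot be told apart here, and the gap was given no test. Schwann cell markers (13 of 13 detected in both, none at 0) moved with the preparation, their summed level being 3205 to 3653 CPM in captured libraries against 7963 to 10777 CPM in whole DRG. Macrophage markers (13 of 14, the other not in the table, none at 0) summed to 54.6 to 84.4 CPM in captured libraries against 144 to 183 CPM in whole DRG. Endothelial markers (15 of 15, none at 0) summed to 206 to 244 CPM against 247 to 317 CPM. Neuron markers (9 of 9, none at 0) were also lower, at 5857 to 6474 CPM against 8629 to 9200 CPM, while satellite glia markers (10 of 10, none at 0) overlapped, at 2262 to 3088 CPM against 2729 to 3319 CPM. The part of these groups in the difference was not tested, and in bulk RNA fewer cells of a type and less RNA per cell cannot be told apart.

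Reads in genes numbered 19296230 to 29434351 per captured library and 11343579 to 17036481 per whole-DRG library. Markers of neurons (9 of 9), of large neurons (12 of 12) and of small neurons (14 of 14) were detected in both preparations. Large neuron markers summed to 9349 to 15344 CPM in captured libraries and 13996 to 16173 CPM in whole DRG. Small neuron markers summed to 3232 to 4934 CPM in captured libraries and 3955 to 4471 CPM in whole DRG. Both lists thus overlapped between the preparations, and neither sum was set apart by the capture. Some marker sums did not overlap between housing groups in captured neurons, as for Fos, although 0 neuron markers passed the edgeR threshold. Neuron markers summed there to 6221 to 6474 CPM in EE and 5857 to 5946 CPM in SH. Schwann cell markers went the other way, at 3205 to 3407 CPM in EE and 3471 to 3653 CPM in SH. Satellite glia markers (10 of 10, none at 0) summed to 2813 to 3088 CPM in EE and 2262 to 2531 CPM in SH, and 1 of them, Fabp7, rose (adjusted p = 0.0322, edgeR quasi-likelihood test). Large neuron markers (none at 0) summed to 11485 to 15344 CPM in EE and 9349 to 11182 CPM in SH. Small neuron markers (none at 0) summed to 3232 to 4064 CPM in EE and 4120 to 4934 CPM in SH. DESeq2 without its filter on mean counts called 4 large neuron markers as higher and 1 as lower in captured EE libraries. It called 7 small neuron markers and 1 Schwann cell marker as lower, and 3 satellite glia markers as higher. Of neuron markers it called 1 as higher and 1 as lower. Of these lists limma-voom called only Fabp7. Skeletal muscle markers (9 of 9, none at 0) summed to 4.49 to 10.4 CPM in EE, and to 14.1, 738 and 3.92 CPM in SH libraries 1 to 3, so that SH replicate 2 stood apart. Without that library the Fos log2 fold change was 0.52 (adjusted p = 0.523, edgeR quasi-likelihood test). In whole DRG, erythrocyte markers (6 of 8, the others not in the table, none at 0) summed to 167 to 379 CPM in EE and 164 to 230 CPM in SH. Neutrophil and lymphocyte markers (11 of 11, none at 0) summed there to 108 to 246 CPM in EE and 80.7 to 212 CPM in SH. With the replicate block in whole DRG, 2 of the first and 3 of the second passed the threshold as higher in EE, and without it 0. Neuron markers of whole DRG did not overlap, at 8629 to 8841 CPM in EE and 9061 to 9200 CPM in SH. The summed large neuron markers of whole DRG did not overlap either, at 13996 to 14762 CPM in EE and 15099 to 16173 CPM in SH. That sum was mostly Nefm, Nefl and Nefh (means of 5257, 4553 and 2277 CPM in EE). Of its 12 markers 5 had a positive log2 fold change, with a median of -0.014. Among single genes tested in whole DRG, 7.48% did not overlap. For both sums the direction was opposite to that in captured neurons. Endothelial markers of captured neurons overlapped between EE (206 to 244 CPM) and SH (213 to 233 CPM). The part of these groups in the members' values was not tested. Within lane 3, which held 2 EE and 2 SH captured libraries, the Fos log2 fold change was 0.52 (adjusted p = 0.303, edgeR quasi-likelihood test).

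No relative of the members in the Jun, Fos, Egr and Nr4a families passed the test. Of 8 tested in captured neurons 0 rose and 0 fell, with a median log2 fold change of -0.080, and of 9 tested in whole DRG 0 rose and 0 fell, with a median of -0.0052. At an unadjusted p under 0.05 there were 0 in captured neurons and 1 higher and 1 lower in whole DRG. Over all genes the shares in either direction were 15.9% and 2.9%. Both limma-voom and DESeq2 (here and for the lists below without its filter on mean counts) called 0 in each. The smallest p values in captured neurons belonged to Nr4a2, an orphan nuclear receptor like Nr4a1 (log2 fold change -0.25, SE 0.154), Egr2, a zinc finger factor that Schwann cells need to make myelin (-0.45, SE 0.331), and Jun, the classic partner of Fos (0.25, SE 0.185). In whole DRG they belonged to Egr3 (-1.15, SE 0.353), Atf3, an injury-induced factor (0.30, SE 0.102), and Jund (-0.15, SE 0.0708). Egr3 had 0.570 to 0.809 CPM in EE and 1.01 to 1.94 CPM in SH libraries of whole DRG, without overlap at a low level, and an adjusted p of 1 (edgeR quasi-likelihood test). In captured neurons its ranges overlapped (1.01 to 1.56 CPM in EE and 0.855 to 1.55 CPM in SH).

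Of 34 other rapid response genes, 32 were tested in captured neurons and 33 in whole DRG, and 0 passed in each. The median log2 fold change was 0.039 in captured neurons and 0.042 in whole DRG. At an unadjusted p under 0.05 there were 1 higher and 1 lower in captured neurons and 3 higher and 2 lower in whole DRG. The shares of all genes in either direction were 15.9% in captured neurons and 2.9% in whole DRG. The list was thus below that background in captured neurons and above it in whole DRG. DESeq2 called 1 gene, Tob1, in captured neurons, and limma-voom called 0 in each preparation. In captured neurons Tob1, a relative of Btg2, stood at -0.50 (SE 0.115), Rgs2, which dampens G protein signalling, at 0.49 (SE 0.158), and Gem at 0.66 (SE 0.309). In whole DRG the matricellular gene Cyr61 stood at 0.70 (SE 0.236, adjusted p = 1, and 0.0475 with the replicate block, edgeR quasi-likelihood test), Bhlhe40, a repressor tied to the circadian clock, at 0.21 (SE 0.0767), and Klf4 at 0.48 (SE 0.172). Rgs2 had the opposite sign in whole DRG (-0.24, SE 0.111), and the difference between preparations (0.72, SE 0.200) had an adjusted p of 0.215 in the edgeR interaction test.

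Genes that respond later to neuronal activity, among them neuropeptides and growth factors, gave 0 of 14 past the threshold in each preparation. Their medians were 0.016 in captured neurons and 0.0091 in whole DRG. At an unadjusted p under 0.05 there were 2 higher in captured neurons and 0 in whole DRG. For all genes the shares in either direction were 15.9% and 2.9%. DESeq2 called 1 gene, Pcsk1, in captured neurons, and limma-voom called 0 in each preparation. In captured neurons Pcsk1, a prohormone convertase, had 98.9 to 108 CPM in EE and 81.6 to 90.1 CPM in SH (log2 fold change 0.30, SE 0.0706, adjusted p = 0.127, edgeR quasi-likelihood test). Sorcs3 stood at 0.23 (SE 0.0870) and Nrn1 at -0.16 (SE 0.0750). In whole DRG the neurotrophin gene Bdnf stood at 0.11 (SE 0.0711), Pcsk1 at 0.12 (SE 0.0780) and the granin gene Scg2 at 0.090 (SE 0.0677).

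Upstream of the members, 37 genes of the transcription factors and kinases that induce them were tested, and 0 passed in each preparation. In captured neurons the median was -0.17, with 12 genes lower and 2 higher at an unadjusted p under 0.05, against 15.9% of all genes in either direction. DESeq2 called 2 there as lower in EE, Camk2a and Camk4, and limma-voom called 0. Camk2a, a calcium/calmodulin kinase subunit, had 61.2 to 73.5 CPM in EE and 90.9 to 131 CPM in SH (log2 fold change -0.65, SE 0.133, adjusted p = 0.0977, edgeR quasi-likelihood test). Camk4, the nuclear kinase that phosphorylates CREB, stood at -0.54 (SE 0.143) and the transcription factor gene Mef2a at -0.21 (SE 0.0621), and in all 3, which were named for their small p, the groups did not overlap, as in 21.1% of all genes. Whole DRG had a median of -0.0049, with 1 gene higher and 2 lower at an unadjusted p under 0.05. The share of all genes there was 2.9% in either direction, and DESeq2 and limma-voom called 0 of the list. The CREB coactivator genes Crtc3 (-0.22, SE 0.0842) and Crtc1 (-0.22, SE 0.0857) and the ternary complex factor gene Elk3 (0.29, SE 0.132) had the smallest p.

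Factors tied to the stability and decay of transcripts were tested as 18 genes, with 0 past the threshold in each preparation. In captured neurons the median was -0.13, with 2 of 18 above 0 and 6 lower at an unadjusted p under 0.05. Such a p was found for 15.9% of all genes there, in either direction. DESeq2 called 2 there as lower in EE, Cnot6 and Hnrnpd, and limma-voom called 0. Cnot6, a deadenylase subunit, had 58.4 to 61.7 CPM in EE and 72.2 to 78.0 CPM in SH (log2 fold change -0.33, SE 0.0677, adjusted p = 0.0977, edgeR quasi-likelihood test). Hnrnpd stood at -0.44 (SE 0.104) and Cnot6l at -0.31 (SE 0.0968). Whole DRG had a median of -0.0079, with 1 gene higher at an unadjusted p under 0.05, against 2.9% of all genes in either direction. DESeq2 and limma-voom called 0 there. Hnrnpd (0.15, SE 0.0678), Khsrp (-0.087, SE 0.0870) and Tob2 (-0.092, SE 0.101) had the smallest p. The sign of Hnrnpd thus differed between preparations, and the difference (-0.60, SE 0.128) had an adjusted p of 0.131 in the edgeR interaction test, while DESeq2 called it. DESeq2 also called the difference of Camk4 as lower, for which edgeR gave -0.80 (SE 0.215, adjusted p = 0.208).

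Other dual-specificity phosphatases, relatives of Dusp1, gave 0 of 9 past the threshold in each preparation, and 0 at an unadjusted p under 0.05 or by DESeq2 or limma-voom. Their medians were 0.055 in captured neurons and -0.0062 in whole DRG. In captured neurons Dusp4 (0.32, SE 0.175), Dusp8 (-0.17, SE 0.104) and Dusp3 (-0.11, SE 0.0717) had the smallest p, and in whole DRG Dusp4 (-0.17, SE 0.202), Dusp5 (-0.053, SE 0.0969) and Dusp14 (0.078, SE 0.151). Heat shock genes, which respond to protein damage and handling, gave 0 of 12 past the threshold in each preparation. All 12 had a positive log2 fold change in captured neurons (median 0.21) and 3 of 12 in whole DRG (median -0.052). At an unadjusted p under 0.05 there were 8 higher in captured neurons and 0 in whole DRG. The shares of all genes, in either direction, were 15.9% and 2.9%. DESeq2 called 1 gene, Hspb1, in captured neurons, and limma-voom called 0 in each preparation. Their summed level was 8718 to 9797 CPM in EE and 7908 to 8333 CPM in SH in captured neurons. Most of that sum came from Hspa8 and Hsp90aa1 (means of 3722 and 3473 CPM in EE). The part of the sum in the Fos values was not tested. In captured neurons Hspb1 (0.30, SE 0.0691), Dnajb1 (0.29, SE 0.0984) and Hspe1 (0.29, SE 0.103) had the smallest p, and in whole DRG Bag3 (-0.13, SE 0.0654), Hspa1b (-0.39, SE 0.193) and Dnajb1 (-0.11, SE 0.0762). Reads of Hspa1b may be shared with its close paralog Hspa1a, which makes its level uncertain.

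**Figure D5:**
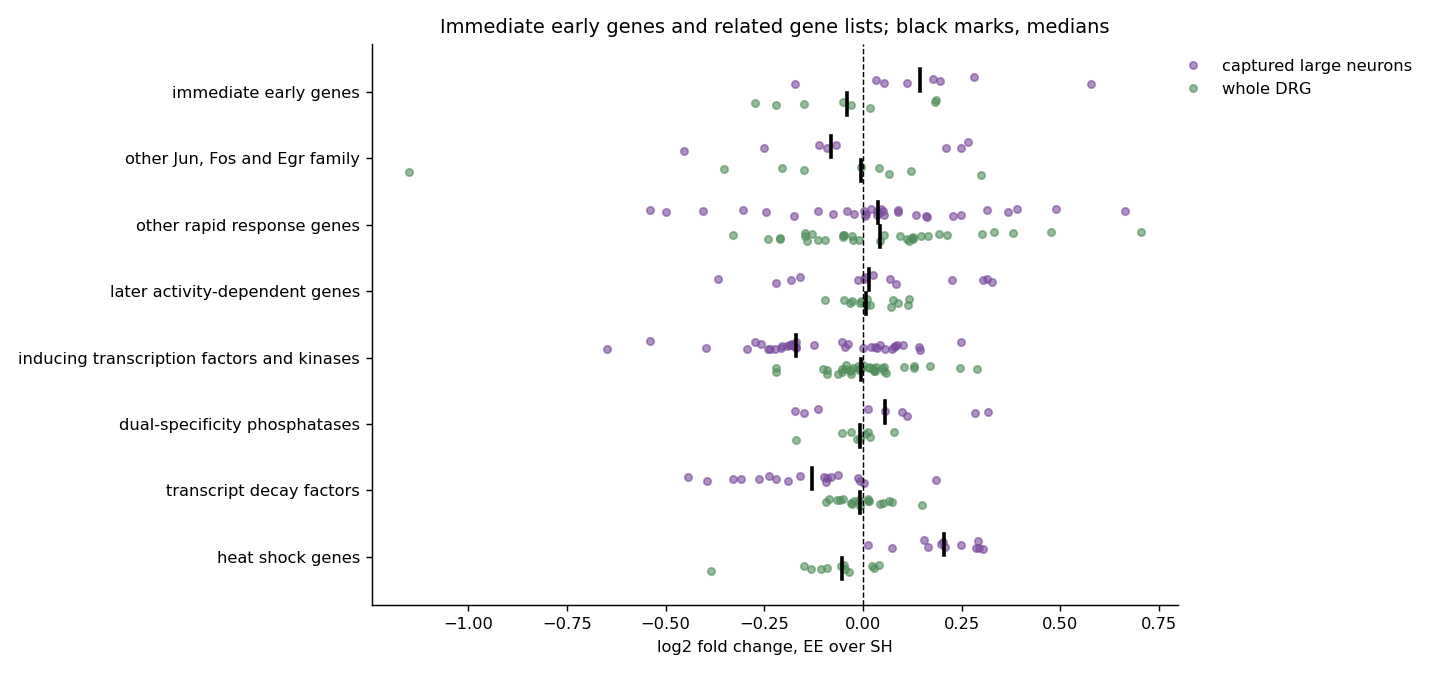
Log2 fold change (EE over SH) of each tested gene of the immediate early genes and 7 related lists, captured neurons above whole DRG in each row; points are genes and black marks list medians. The medians of the 8 members are 0.14 in captured neurons and -0.040 in whole DRG, and in captured neurons the inducing factors (-0.17) and heat shock genes (0.21) lie farther from 0 than the members do.

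Outside these lists, the genes whose log2 CPM followed the mean standardised profile of the members most closely in both preparations were Lrrfip1, Parp3, Comp, Creld2 and Smim11. Over 6 libraries of captured neurons and 6 of whole DRG the Pearson correlations were 0.92 and 0.89 for Lrrfip1, 0.97 and 0.88 for Parp3 and 0.88 and 0.87 for Comp. They were 0.87 and 0.95 for Creld2 and 0.87 and 0.89 for Smim11. They were picked as the closest of 12656 genes compared over few libraries, which share lanes and depth, and the values are a description.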

How the data were processed

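RNA-seq libraries of whole DRG and of laser-captured large DRG neurons were compared between EE and SH. Per the labels' protocols, whole-DRG libraries used a TruSeq mRNA kit and captured libraries a RiboZero ScriptSeq kit, with RNA integrity above 7.5 in whole DRG and of 6 to 7 in captured neurons. The submitters' processing notes name TopHat2 2.0.12, HTSeq 0.6.0 and mm10, without roles. The deposited count tables hold whole-number counts per gene name, and their 5 summary rows (28.0 to 47.6% of reads in no feature, 8.49 to 15.2% not unique) were left out. FPKM values of whole DRG are the authors' own. The second deposited table of captured neurons is a signal, counts times 1 constant per library.

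The members, lists and tests were chosen with earlier results of these data known. Each preparation was tested with edgeR 4.0.16 (R 4.3.3): filterByExpr, TMM, quasi-likelihood test, Benjamini-Hochberg adjustment at 0.05, without a block, and the difference as an interaction over 12 libraries. Scripts were tested on simulated counts. Alternatives used DESeq2 1.42.0 with and without independent filtering, limma 3.58.1, other scalings, no filter, a block for the replicate number, only lane 3, and dropping single libraries. Members were all named, of other lists the 3 smallest p in each housing comparison, and the 5 genes of closest pattern among those with an average log2 CPM of at least 1. The rule also took list genes past the threshold, of which there was 1, the marker Fabp7. Others named with values, such as Egr3 in captured neurons, stand beside their value in the other preparation. Intervals of fold changes come from the edgeR fit. Exon lengths and overlaps are from GENCODE vM21 (GRCm38, the assembly of mm10). No 2 libraries of a group were duplicates (chi-square per degree of freedom 3.76 to 19.1). In whole DRG, EE and SH libraries of 1 number shared a lane per the labels, so the numbers pair them. Their deviations correlated at 0.41, 0.18 and 0.09 (replicates 1 to 3), against 0.26 for EE 2 with SH 3. Captured libraries have no lane of this kind.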

Additional observations from a re-analysis of the deposited data

How the results depend on the processing

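The count of members past the threshold was 0 in captured neurons, whole DRG and their difference under every alternative that gives counts, except that DESeq2 with its filter on mean counts left 7 of 8 members in captured neurons and all 9 in the difference without an adjusted p, so that its 0 says nothing of them. Counts over all genes were less steady. In whole DRG (1 gene) there were 0 with library size alone, 48 with no filter, 32 with the replicate block and 0 to 2 without single libraries. In captured neurons (3 genes) there were 522 with DESeq2, 425 with DESeq2 without that filter (chosen after seeing the data), 902 with no filter, 658 in lane 3 alone, 0 with the replicate block and 0 to 602 without single libraries, the 602 without EE replicate 1. For the difference (0 genes, and 145 with DESeq2, 88 with DESeq2 without that filter, 457 with no filter) there were 0 to 233 without single libraries, the 233 without captured EE replicate 1. The cause was not tested. The members' median in captured neurons was 0.10 to 0.26 over the alternatives (0.26 without SH replicate 3) and in whole DRG -0.10 to 0.023. The replicate block changed no member's call, the adjusted p of Fabp7 in captured neurons being 0.0626 with it. In captured neurons, whose numbers share no lane, deviations correlated at 0.13, -0.06 and 0.21 within numbers.

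The Fos log2 fold change in captured neurons was 0.44 to 0.71 over 15 alternatives, with adjusted p from 0.171 to 0.523 in the 14 that gave one (edgeR, limma and DESeq2 without that filter). Members changed sign only when single libraries were left out. In whole DRG this held for Junb (-0.088 to 0.15) and Ier2 (-0.19 to 0.073), and in captured neurons Junb (-0.18 to 0.23), Ier2 (-0.41 to 0.11) and Dusp1 (-0.029 to 0.11). For the difference it held for Junb (-0.21 to 0.20), Ier2 (-0.39 to 0.14), Btg2 (-0.15 to 0.011) and Fosb (-0.99 to 0.16). Depth limits Fosb, Npas4 and captured Ier2.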
